A study of Mus musculus with 20 samples.

Results

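Tumor necrosis factor (TNF), interleukin 1 (IL-1) and the IL-6 family are secreted signals of inflammation, and their genes and receptors were followed here through the stromal, endothelial and myeloid cells of mouse interscapular brown adipose tissue (iBAT). The members were taken by symbol from the gene list of the deposited matrices and are 10 of its 31053 genes: the ligand genes Tnf, Il1a, Il1b, Il6, Lif and Osm, the antagonist gene Il1rn, and the receptor genes Il1r1, Il1r2 and Il6st. All 10 were listed in every library. Single-cell RNA-sequencing (scRNA-seq) had been run on 20 libraries from 10 experiments, each a pool of 3 to 4 mice whose stromal vascular cells were split by magnetic beads into a lineage marker positive (Lin+, mostly immune) and a lineage marker negative (Lin-, mostly stromal) library.

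C57BL/6J males were kept at room temperature (RT, 24 °C), moved for 4 days to 6 °C (COLD) or given the β3-adrenergic agonist CL316,243 (CL) by a pump at 0.75 nmol per hour for 4 days, with 2 experiments each. A second line of female mice carried Adrb1 fl/fl alleles, in which the β1-adrenergic receptor gene is flanked by loxP sites, and either lacked (Pdgfra-CreER -/-, WT) or carried 1 copy of (Pdgfra-CreER +/-, KO) a tamoxifen-inducible Cre driven by the Pdgfra promoter, which is active in adipose stromal cells. All mice of that line received tamoxifen, and WT and KO were studied at RT and in the cold with 1 experiment each. Mice were 8 to 14 weeks old. In the Adrb1 line the RT libraries were made with kit version 3 and the cold ones with version 2, so temperature and kit cannot be told apart there. The experiments are pools of mice, and p-values below measure the spread between pools. In fits over both lines, WT and KO libraries of a temperature were treated as replicates, so the spread there also holds the genotype difference.

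After filtering, 66339 of 89637 Lin- and 59935 of 67122 Lin+ barcodes were kept, with 7857161 to 41979839 unique molecular identifiers (UMIs) per library and medians of 1204 to 4358 UMIs per cell. The RT Lin- library of C57 replicate 2 stood apart, keeping 6171 of 22072 barcodes, with 72.0% removed for mitochondrial content. The Lin+ and Lin- libraries of CL replicate 2 shared 1098 barcodes, 17.1% of the smaller one, while no other pair shared more than 2.04%. Cells were clustered without the members and named from marker genes, with 87.4% of Lin- and 83.9% of Lin+ cells given a name. Names carry the ending -like because they were rebuilt here: the stromal subtypes ASC1-like, ASC2-like and ASC3-like, vascular endothelial cells (VEC-like), smooth muscle cells (VSMC-like), pericytes, the macrophages MAC1-like and MAC2-like, monocytes (MONO-like), dendritic cells (DEND1-like to DEND4-like) and neutrophils (NEUT-like). No cluster was named for the MAC3 macrophages: the Lin+ cluster led by Cxcl10, Ifit3 and Rsad2 (4690 cells) raised 6 of 6 MAC3 markers, but also 6 of 6 of MONO, and was left without a name. Levels (CPM) are the UMIs of a gene in the cells of a class in a library, scaled to a class total of 1000000 UMIs. They are given where a library held at least 20 such cells, except for a small Lin+ cluster left without a name.

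As background, TNF and both forms of IL-1 signal through receptors that switch on the transcription factor NF-kB. IL-1 alpha and IL-1 beta bind the same receptor, encoded by Il1r1. The product of Il1rn occupies that receptor without signalling, and Il1r2 encodes a decoy that binds IL-1 and passes no signal on. IL-6, leukemia inhibitory factor (Lif) and oncostatin M (Osm) each use a receptor chain of their own and share the signalling chain gp130, encoded by Il6st, which acts through the kinase JAK and the factor STAT3. In fat, IL-6 is a product of stromal cells as well as of immune cells, and catecholamines are known to raise it.

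In the GRCm38 mouse genome, the ligand genes lie at chr17:35199381-35202007 (Tnf, minus strand), chr2:129299610-129309972 (Il1a, minus), chr2:129364570-129371139 (Il1b, minus), chr5:30013114-30019981 (Il6, plus), chr11:4257557-4272514 (Lif, plus) and chr11:4236420-4241026 (Osm, plus). The antagonist gene Il1rn is at chr2:24336853-24351494 (plus), and the receptor genes are at chr1:40225080-40317257 (Il1r1, plus), chr1:40074079-40125231 (Il1r2, plus) and chr13:112464070-112510086 (Il6st, plus). All are protein coding. The 250 bases before the start sites of Il6, Tnf and Il1b are shown because the cold results below turn on these genes. They cover chr5:30012864-30013113 (plus), chr17:35202008-35202257 (minus) and chr2:129371140-129371389 (minus), come from RefSeq (GRCm38.p6), and read from 5′ to 3′ along the gene. Capitals mark matches to the motifs searched on both strands.
Il6: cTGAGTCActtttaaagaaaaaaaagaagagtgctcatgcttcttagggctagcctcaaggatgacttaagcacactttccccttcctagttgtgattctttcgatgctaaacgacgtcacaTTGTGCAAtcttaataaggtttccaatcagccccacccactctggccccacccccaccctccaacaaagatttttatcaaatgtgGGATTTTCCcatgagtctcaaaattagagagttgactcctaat
Tnf: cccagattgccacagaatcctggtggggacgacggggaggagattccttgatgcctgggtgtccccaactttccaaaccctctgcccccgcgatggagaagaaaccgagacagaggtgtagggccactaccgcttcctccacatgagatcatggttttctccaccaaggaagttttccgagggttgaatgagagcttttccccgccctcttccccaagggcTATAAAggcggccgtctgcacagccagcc
Il1b: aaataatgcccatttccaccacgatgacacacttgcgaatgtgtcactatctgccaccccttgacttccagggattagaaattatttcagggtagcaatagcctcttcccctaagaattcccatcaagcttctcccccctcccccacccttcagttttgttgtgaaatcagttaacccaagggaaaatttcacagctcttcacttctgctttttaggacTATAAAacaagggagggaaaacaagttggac

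NF-kB sites were searched as GGNNTTTCC. For the factor AP-1 the letters were TGANTCA. The cyclic AMP response element (CRE) was searched as TGACGTCA. C/EBP sites were searched as TTGCNNAA. The TATA box was searched as TATAAA. The Il6 window held an NF-kB match 43 bases before the start site, a C/EBP match at 128 and an AP-1 match at 249. Of 32851 mouse promoter windows of this length, 4.93% held the NF-kB letters, 9.56% the C/EBP letters, 6.75% the AP-1 letters, 1.55% the CRE letters and 12.4% the TATA letters. The Tnf and Il1b windows held the TATA letters 29 and 31 bases before the start site and no match to the other letters. Of the other members, Il1rn had an NF-kB match in its second window and an AP-1 match in another, Il1a had AP-1 and TATA matches, Lif an AP-1 match and Il1r1 a C/EBP match. The NF-kB letters had first been searched with 1 more G in front, which 1.41% of all windows and the same 2 members, Il6 and Il1rn, held, and were shortened after the matches had been seen. A match is a description of the letters, and no factor was measured at these sites.

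The members divided the tissue between them. Among the named classes, Il6 and Il1r1 were highest in stromal cells, Il6st in endothelial and stromal cells, Lif in a lymphoid class, and Tnf, Il1b, Il1rn, Il1r2 and Osm in myeloid cells. Values in this part of the text are means over all experiments with the SD and n, which mixes the treatments described later. NEUT-like cells held 10902 ± 2530 CPM of Il1b (n = 10, range 7601 to 14968), against 1501 ± 323 in nonclassical MONO-like cells, 936 ± 361 in MONO-like cells and 739 ± 229 in DEND2-like cells. The lowest neutrophil library thus lay above the highest value of every other class named. B lymphocytes (Blym-like), which should lack most of these messages, held 19.96 to 70.8 CPM of Il1b in the C57 libraries and 11.8 to 155 in the Adrb1 libraries, a level that can be read as the background of free RNA.

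Il1a, the other IL-1 ligand gene, was near the limit of detection. Its highest class mean was 7.12 ± 14.8 CPM in NEUT-like cells (n = 10), carried by 1 CL library at 48.2 CPM, and no class reached 20 CPM. Among the named classes, the antagonist Il1rn was highest in myeloid cells. It stood at 278 ± 119 CPM in NEUT-like, 188 ± 139 in MAC1-like and 74.7 ± 28.4 in DEND2-like cells (n = 10 each). The unnamed Lin+ cluster led by Cxcl10, Ifit3 and Rsad2 held 63.4 to 540 CPM of Il1rn in the RT and COLD libraries.

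The IL-1 receptors split between compartments. Il1r1, the signalling receptor, stood at 172 ± 42.2 CPM in ASC1-like, 145 ± 42.8 in ASC3-like and 99.03 ± 30.3 in ASC2-like cells (n = 10 each), with pericytes at 84.0 ± 31.6 and VSMC-like cells at 81.7 ± 18.7. Il1r2, the decoy, stood at 1272 ± 270 CPM in NEUT-like cells and 216 ± 153 in ASC2-like cells, and the next class, DEND2-like, was at 42.2 ± 13.5. The large SD of ASC2-like cells came from the difference between the mouse lines: their Il1r2 was 253 to 476 CPM in the 6 C57 experiments and 14.1 to 90.3 CPM in the 4 of the Adrb1 line. Line, sex and tamoxifen cannot be told apart in that comparison, and the RT libraries of the Adrb1 line also differ in kit. Within that line, ASC2-like Il1r2 was 14.1 (WT) and 30.3 CPM (KO) at RT. It was 90.1 (WT) and 90.3 CPM (KO) in the cold, where kit and temperature change together.

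Tnf was highest in macrophages, with 237 ± 246 CPM in MAC1-like cells and 215 ± 102 in MAC2-like cells (n = 10 each), followed by NEUT-like cells at 178 ± 104 and DEND2-like cells at 102 ± 24.8. MAC1-like cells were above MAC2-like cells in 4 of 10 experiments, those at RT, and below them in every COLD and CL experiment. The order of these 2 classes thus did not hold over all experiments. The MAC1-like mean includes 905 CPM from the 20 cells of the RT library of C57 replicate 1. Blym-like cells held 9.89 to 36.4 CPM of Tnf in the C57 libraries.

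Among the IL-6 family ligands and the named classes, Il6 was highest in ASC2-like cells (186 ± 75.8 CPM, n = 10) and ASC3-like cells (123 ± 60.4), and ASC1-like cells stood at 62.4 ± 45.3. ASC2-like cells lay above ASC3-like cells in 10 of 10 experiments. The highest named myeloid class was DEND2-like at 55.7 ± 39.9 CPM, and Blym-like cells did not exceed 3.42 CPM of Il6 in C57 libraries. Of the named classes, Osm was highest in NEUT-like cells (500 ± 248 CPM, range 202 to 962), with 85.1 ± 23.8 in MONO-like and 46.9 ± 27.9 in MAC1-like cells. Adipocyte-like Lin- cells ranked second for Osm at 122 ± 253 CPM (n = 9), but this mean came from the RT library of C57 replicate 2, at 785 CPM in 32 cells. A small Lin+ cluster left without a name, with 8 to 29 cells a library, lay above every named class for both genes, at 1489 to 3587 CPM of Il6 and 969 to 4683 CPM of Osm. The level of Lif was highest among the named classes in group 2 innate lymphoid cells (ILC2-like, Lin-) at 42.0 ± 18.2 CPM, against 6.01 ± 3.54 in ASC2-like cells, and the first was above the second in 10 of 10 experiments. ILC2-like cells numbered 31 to 174 a library and ASC2-like cells 572 to 2052, so the higher level does not mean that most Lif RNA was there. The shared chain Il6st was broad, with 24 of 28 classes at 20 CPM or more, and was highest in VEC-like Lin- cells (327 ± 126), lymphatic endothelium (319 ± 43.2, n = 6) and ASC3-like cells (292 ± 97.6).

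Neighbouring classes in the order of mean levels were compared over experiments by an exact two-sided permutation test that flips the signs of paired log2(CPM + 1) differences. None of 270 neighbour pairs passed after Benjamini-Hochberg adjustment (smallest adjusted p = 0.132), and 24 had an unadjusted p under 0.05. The smallest p that 10 experiments allow is 0.00195, which was reached by NEUT-like over the next class for Il1b and Il1r2, by ASC2-like over ASC3-like for Il6, and by ILC2-like over ASC2-like for Lif. Over 270 pairs, a pair at this p could pass adjustment only if more pairs had reached it. Some pairs also compared classes without any UMI of the gene. The lack of a passing pair therefore does not show that neighbouring classes are alike. MAC1-like and MAC2-like cells for Tnf, and VEC-like and lymphatic cells for Il6st, were not separated beyond the spread between experiments.

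The receptor chains of the fixed pathway list that pair with the members had their own distribution. Osmr, the oncostatin M receptor chain, averaged 100.5 CPM in ASC1-like, 98.9 in VEC-like Lin- and 73.9 in pericyte-like cells, its mean was at most 0.241 CPM in every Lin+ myeloid class named, and DEND1-like Lin- cells averaged 15.1 CPM. Il6ra, the IL-6 binding chain, averaged 258 CPM in MONO-like, 230 in nonclassical MONO-like, 98.7 in ASC2-like and 18.6 in ASC1-like cells. Lifr, the chain for leukemia inhibitory factor, averaged 205 CPM in ASC1-like, 168 in VEC-like Lin- and 147 in MAC2-like cells. Tnfrsf1a, the widely expressed TNF receptor, averaged 217 CPM in ASC1-like and 284 in VEC-like Lin- cells. Il1rap, the partner chain of the IL-1 receptor, averaged 94.6 CPM in NEUT-like cells and 13.8 to 17.1 CPM in the ASC classes.

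Genes whose levels followed a member most closely were sought over 29 classes among 11810 genes that reach 20 CPM in a class, by Pearson's r of log2(mean CPM + 1). The classes share libraries, so these values are descriptions. Il1b was followed most closely by Pirb (r = 0.97), Il1rn by Clec4n (0.97), and Tnf and Osm both by Lilr4b (0.93 and 0.96), all genes of myeloid receptors. Il1r1 was followed by Gstm2 (0.97) and Il6 by Nfix (0.88). Il1r2 was closest to Ptgs2os2 (0.89) and Ptgs2 (0.83), the cyclooxygenase gene and its neighbouring transcript. The 3 closest to Lif were Cntn1 (0.81) and the type 2 cytokine genes Il13 (0.72) and Il5 (0.72), and Rnf215 was closest to Il6st (0.91).

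To ask which members respond to cold and to CL, summed counts per class and library were compared in the 6 C57 libraries of each fraction by edgeR's quasi-likelihood test, with p-values adjusted over all genes tested. Both contrasts use the same RT libraries. In the cold, 8 of the 76 member and class pairs tested over 16 classes passed, 2 higher and 6 lower, beside a background of 3.16% of all gene and class pairs (1.55% higher and 1.6% lower). For CL 4 of 76 passed, 2 higher and 2 lower, beside a background of 0.573% (0.336% higher and 0.237% lower). Members that were too low to be tested in a class are not among the 76. In ASC1-like cells 6 of 10 members were tested, in ASC2-like and ASC3-like cells 5, in VEC-like Lin- cells 4, in MAC1-like cells 8, and in MAC2-like, DEND2-like and MONO-like cells 7.

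Il6 rose in ASC1-like cells in both treatments. Its level was 19.9 and 26.2 CPM at RT, 126 and 85.2 after cold exposure and 88.6 and 48.2 after CL infusion. Every treated library lay above both RT libraries. The log2 fold change was 2.33 in the cold (SE 0.26, adjusted p = 0.00141) and 1.73 with CL (SE 0.26, adjusted p = 0.0169). In this class 10.9% of all genes tested were called in the cold and 1.28% with CL. The CL call rests on single libraries: it was lost without CL replicate 1 (1.42, adjusted p = 0.058), without RT replicate 1 (1.89, adjusted p = 0.061), without RT replicate 2 (1.61, adjusted p = 0.14), and without the barcodes that the CL replicate 2 libraries share (1.60, adjusted p = 0.078).

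The decoy receptor Il1r2 rose beside it. It stood at 4.43 and 13.1 CPM at RT, 22.1 and 22.5 in the cold, and with CL 33.2 and 20.1, again without overlap between treated and RT libraries. The log2 fold change was 1.73 in the cold (SE 0.29, adjusted p = 0.00728) and 2.00 with CL (SE 0.30, adjusted p = 0.0169). Without RT replicate 1 the cold call of Il1r2 was lost (1.25, adjusted p = 0.063). The CL call of Il1r2 was lost without CL replicate 1 (1.80), without RT replicate 1 (1.53) and without the shared barcodes (1.86, adjusted p = 0.068). The signalling receptor Il1r1 was not called in ASC1-like cells (cold log2 fold change 0.30), and neither were Tnf (-0.33), Lif (-0.38) and Il6st (0.08).

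The share of ASC1-like cells with an Il6 UMI gave the same order. After each cell was thinned to 1000 UMIs, which left out 32 to 258 shallower cells per library, Il6 was seen in 1.65% and 1.32% of them at RT, in 8.52% and 6.29% after cold exposure and in 6.49% and 2.82% after CL. Unthinned shares of Il6 were 4.59% and 2.28% at RT, 17.2% and 17.8% in COLD libraries and 9.001% and 8.795% in CL libraries. Thinned Blym-like cells held an Il6 UMI in 0 to 0.41% of cells in these treatments. For Il1r2 the thinned ASC1-like shares were 0.34% to 1.32% at RT and 2.21% and 2.55% in the cold, and VEC-like Lin- cells were at 0 to 0.38% of cells. Median UMIs per cell ranged from 1532 to 5297 in ASC1-like cells and from 770 to 1561 in Blym-like cells.

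The other ASC subtypes had more Il6 at RT and no called change. ASC2-like cells held 246 and 249 CPM of Il6 at RT, 233 and 224 in the cold, and with CL 289 and 211 (cold log2 fold change -0.07, adjusted p = 0.963; 0.931% of all genes were called in the cold and 0.0639% with CL). In ASC3-like cells Il6 was 219 and 194 CPM at RT, 81.8 and 158 in the cold, and with CL 164 and 143 (cold -0.78, adjusted p = 0.763; backgrounds 0.165% in the cold and 0.0485% with CL). Il1r2 in ASC2-like cells was 316 and 476 CPM at RT, 297 and 340 in the cold, and with CL 256 and 253. At RT, therefore, Il6 in ASC1-like cells was below both other subtypes in each C57 experiment.

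The difference between subtypes was tested itself, by a subtype by treatment term with the library as a block. For Il6, the cold response of ASC1-like minus that of ASC2-like cells was 2.37 on the log2 scale (SE 0.22, adjusted p = 3.23e-06), in a fit that called 9.32% of all genes. The same difference for Il6 with CL was 1.53 (SE 0.23, adjusted p = 0.00149), with a background of 1.58%. For Il1r2 it was 1.93 in the cold (SE 0.28, adjusted p = 0.000277) and 2.37 with CL (SE 0.29, adjusted p = 0.000398). Against ASC3-like cells, the cold difference of Il6 was 3.08 (SE 0.40, adjusted p = 0.000739; background 5.82%). The CL difference of Il6 against ASC3-like cells (1.98, adjusted p = 0.0765; background 0.241%) and those of Il1r2 (cold 1.23, adjusted p = 0.0973; CL 1.89, adjusted p = 0.104) did not pass.

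**Figure D1:**
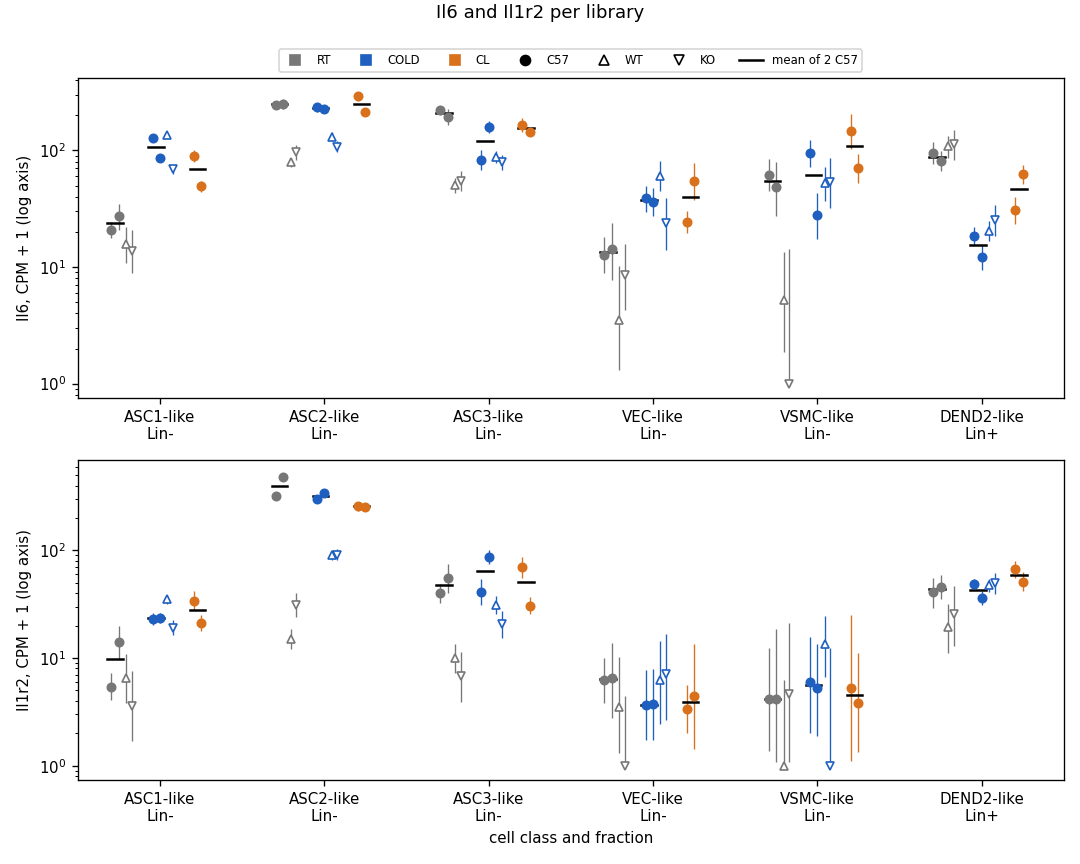
Il6 and Il1r2 in stromal and endothelial classes by experiment. The y axis gives the level in CPM and each point is 1 library of the C57 or Adrb1 line at RT, COLD or CL, so that ASC1-like cells are seen to rise from 19.9 and 26.2 CPM of Il6 at RT to 126 and 85.2 in the cold while ASC2-like cells stay between 211 and 289 in the C57 line.

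ASC1-like cells were made up of 3 clusters whose shares differed between treatments. Cluster 0, led by Smoc2 and Cxcl14, counted 1406 and 1295 cells in the RT libraries, 1106 and 719 in COLD and 928 and 1167 in CL. Cluster 3, led by Cxcl10, Cxcl9, Ccl2 and Timp1, counted 29 and 29 cells at RT, but 1653 and 1527 (54.7% and 61.1% of the class) in COLD and 299 and 176 in CL. Cluster 13, led by Manf, Hspa5 and Fosb, held the rest. In the C57 line most ASC1-like cells were therefore in cluster 0 at RT and in cluster 3 in the cold. In the Adrb1 line cluster 3 was 20.7% of the class in WT and 23.0% in KO at RT and 37.5% and 41.9% in the cold, where cluster 0 remained the larger at 49.7% and 45.7%. Before clustering, the RT, COLD and CL libraries of a C57 replicate were aligned as a single cohort. Each Adrb1 library was aligned as a cohort of its own. Cluster shares were thus not obtained alike in the mouse lines, and the part of this in their difference was not tested.

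Within cluster 0, Il6 was 19.3 and 16.9 CPM at RT, 25.9 and 17.5 in the cold, and with CL 59.9 and 27.3. The C57 cold change within that cluster was 0.26 on the log2 scale (adjusted p = 0.725), and the CL change was 1.24 (adjusted p = 0.173). In cluster 3, Il6 was 47.3 and 185 CPM at RT, where it rests on 29 cells a library, 188 and 112 in the cold and 166 and 152 with CL (cold 0.92, adjusted p = 0.546). The part of the cluster shares in the cold call of Il6 over ASC1-like cells was not tested. Within cluster 13 no gene of the 5271 tested was called in the cold. Thus the cold call of Il6 was not made within any of the clusters. Il1r2 differed from it: within cluster 0 alone it was called in the cold (1.69, adjusted p = 0.0116; background 6.54%) and with CL (1.88, adjusted p = 0.0206; background 1.01%), while within cluster 3 it was not (0.24 in the cold and 1.39 with CL; backgrounds 0.281% and 0.337%). These fits by cluster were chosen after seeing the data.

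Markers of other cell types were measured in ASC1-like cells beside these results. The 8 adipocyte markers summed to 48.9 to 55.0 CPM at RT, 1723 to 2029 in the cold and 993 to 1488 with CL in the C57 line, and all 8 were detected in each group. The 6 stromal markers summed to 71254 to 99055 CPM at RT and 35806 to 41383 in the cold. The 10 immune markers summed to 7.66 to 12.0 CPM in each of the C57 groups. The 14 early response genes, which are also induced during tissue digestion, summed to 6130 to 13966 CPM at RT and 7220 to 7308 in the cold. The part of the adipocyte and stromal markers in the Il6 and Il1r2 results was not tested.

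The Adrb1 line gave values in the same direction, with 1 library per group and no test within the line. Il6 in ASC1-like cells was 14.7 CPM in WT at RT (95% exact Poisson interval 9.85 to 21.1) and 134 in the cold (128 to 141). In KO, Il6 was 12.8 CPM at RT (7.83 to 19.8) and 68.1 in the cold (62.3 to 74.3). Il1r2 went from 5.58 (2.79 to 9.98) to 34.1 (30.8 to 37.7) in WT and from 2.56 (0.698 to 6.56) to 18.2 (15.2 to 21.5) in KO. The cold level was lower in KO than in WT for both genes, with intervals that cover counting error only. Il1r2 was also higher in the cold in the other subtypes of this line. It went from 14.1 to 90.1 CPM in WT and from 30.3 to 90.3 in KO in ASC2-like cells. In ASC3-like cells it went from 8.94 to 30.2 in WT and from 5.84 to 19.6 in KO. The subtype difference was not tested in this line. Over the 8 RT and COLD libraries of both lines, with line as a term, the log2 cold change in ASC1-like cells was 2.59 for Il6 (SE 0.25, adjusted p = 9.13e-05) and 2.07 for Il1r2 (SE 0.32, adjusted p = 0.00117), in a fit that called 32.4% of genes.

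Il6 was measured in endothelial cells as well. In VEC-like Lin- cells it was 11.8 and 13.1 CPM at RT, 37.8 and 35.4 in the cold, and with CL 23.5 and 54.0. Treated and RT libraries did not overlap, but in the C57 line the change did not pass (cold log2 fold change 1.57, SE 0.43, adjusted p = 0.256; CL 1.53, adjusted p = 0.416), in fits that called 0.235% and 0% of genes. In the Adrb1 line endothelial Il6 was 2.54 CPM (0.308 to 9.19) at RT and 59.9 (43.9 to 79.9) in the cold in WT, and 7.53 (3.25 to 14.8) and 23.0 (12.9 to 38.0) in KO. Over both lines the change passed (1.94, SE 0.35, adjusted p = 0.00827; background 5.92%). The cluster of VEC-like cells led by Vwf, Selp and Ackr1, genes of venous endothelium, held the most Il6 of that class, with 99.6 and 88.2 CPM at RT, 256 and 120 in the cold, and with CL 110 and 130. This cluster was 6.94% and 10.997% of VEC-like cells at RT, 10.7% and 22.3% in COLD and 8.17% and 32.03% in CL in the C57 line. In the Adrb1 line it went from 24% to 28.4% in WT and from 21.4% to 36.0% in KO. Each library of that line was aligned as a cohort of its own. The part of these shares in the endothelial Il6 values was not tested.

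In myeloid cells the changes called in the C57 line without the replicate block were falls. Il6 fell in DEND2-like cells, a class whose leading genes included Cd209a, Tnip3 and Clec4b1 and which the study names monocyte-derived dendritic cells. It stood at 94.4 and 80.4 CPM at RT, 17.6 and 11.1 in the cold, and with CL 30.0 and 61.3. Every treated library lay below both RT libraries. The log2 fold change was -2.81 in the cold (SE 0.37, adjusted p = 0.00388; background 11.1%) and -1.06 with CL (SE 0.36, adjusted p = 0.252; background 0.481%). The class grew from 205 and 214 cells at RT to 1039 and 773 in the cold.

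The Adrb1 line gave close values for Il6 in DEND2-like cells: 107 CPM (85.1 to 133) at RT and 19.4 (15.7 to 23.9) in the cold in WT, and 112 (81.5 to 149) and 24.2 (17.3 to 32.8) in KO. Over both lines the log2 fold change was -2.51 (SE 0.21, adjusted p = 8.78e-05; background 37.7%). Thinned to 1000 UMIs, 3.50% and 4.31% of DEND2-like cells held an Il6 UMI at RT, 0.97% and 1.17% did so after cold exposure, and 2.41% and 6.32% after CL. Il6 thus fell in DEND2-like cells in the cold while it rose in ASC1-like cells. The 14 early response genes summed in this class to 9129 to 10454 CPM at RT and 7975 to 8436 in the cold, and their part in the result was not tested. Il6st fell slightly in the same cells, from 36.7 and 39.4 CPM at RT to 25.7 and 26.2 in the cold (-0.78, SE 0.20, adjusted p = 0.0368). The Il6st call was lost when any 1 RT or COLD library was left out.

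Tnf and Il1b fell together in macrophages. In MAC2-like cells, named from Folr2, Mrc1 and other markers of resident macrophages, Tnf was 439 and 330 CPM at RT, 160 and 124 in the cold, and with CL 106 and 158. Il1b in these cells was 388 and 197 CPM at RT, 82.3 and 74.6 in the cold, and with CL 79.0 and 160. For each of the 2 genes all 4 treated libraries lay below both RT libraries. The cold log2 fold changes were -1.59 for Tnf (SE 0.30, adjusted p = 0.0072) and -2.06 for Il1b (SE 0.41, adjusted p = 0.0114; background 4.54%). With CL they were -1.60 for Tnf (SE 0.27, adjusted p = 0.00454) and -1.34 for Il1b (SE 0.35, adjusted p = 0.0455; background 4.02%).

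Single libraries decide some of these calls. Both cold calls in MAC2-like cells were lost without COLD replicate 1, without COLD replicate 2 and without RT replicate 1, with Tnf between -1.82 and -1.37 and Il1b between -2.48 and -1.49 over all alternatives. The CL call of Tnf was lost without RT replicate 1, at a log2 fold change of -1.38. That of Il1b was lost at -0.83 without CL replicate 1, at -0.77 without RT replicate 1, at -1.75 without RT replicate 2, at -1.41 with a stricter mitochondrial limit and at -1.35 with DESeq2. The Adrb1 line did not show these falls: Tnf in MAC2-like cells was 218 CPM (185 to 255) at RT and 191 (167 to 217) in the cold in WT, and 169 (142 to 199) and 255 (214 to 302) in KO. Il1b was 236 CPM (202 to 275) and 343 (310 to 377) in WT, and 346 (308 to 388) and 290 (245 to 339) in KO. Over both lines neither gene was called in MAC2-like cells (Tnf -0.58, adjusted p = 0.241; Il1b -0.80, adjusted p = 0.173). In the Adrb1 line kit and temperature change together, and each library was aligned as a cohort of its own, unlike the C57 libraries. The part of these differences in the values of that line was not tested.

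The class changed in number and makeup in the C57 line. MAC2-like cells numbered 687 and 692 in the RT libraries, 129 and 53 in COLD and 1302 and 518 in CL. Cluster 11, led by Lilra5, Mgl2 and Vcam1, held 564 and 571 cells at RT but 47 and 13 in the cold and 222 and 229 with CL, and cluster 12, led by Ccl8, Cd209f, Folr2 and Lyve1, held the others. In the Adrb1 line MAC2-like cells went from 140 to 225 in WT and from 162 to 112 in KO, and cluster 11 was 58.6% and 62.3% of them at RT and 52% and 68.8% in the cold. These numbers also come from libraries aligned singly, with the kit changing with temperature. Within cluster 12 alone, the cold fits called Tnf (-1.53, adjusted p = 0.0228) and Il1b (-1.91, adjusted p = 0.0414; background 5.16%), and the CL fit called Tnf (-1.24, adjusted p = 0.0393; background 2.36%). Within cluster 11, the CL fit called Tnf (-1.21, adjusted p = 0.0372) and Il1b (-1.64, adjusted p = 0.0165; background 0.652%). The early response genes moved the same way: their sum in MAC2-like cells was 16587 to 16629 CPM at RT, 8154 to 10345 in the cold and 6292 to 11605 with CL. Their part in the falls of Tnf and Il1b was not tested.

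MAC1-like cells, named from Trem2, Gpnmb, Spp1 and other genes of lipid-handling macrophages, were rare at RT, with 20 and 21 cells, and numbered 1462 and 1044 in the cold and 1044 and 229 with CL. Their cluster also raised 6 of 6 MAC2 markers and 4 of 6 MAC3 markers. Whether the few RT cells and the cold cells of this class are alike was not tested. Tnf was 905 and 349 CPM in the few RT cells, 123 and 96.8 in the cold and 105 and 149 with CL. Il1b was 621 and 211 CPM at RT, 72.4 and 39.6 in the cold, and with CL 38.8 and 92.2. Both were called in the cold (Tnf -2.36, SE 0.38, adjusted p = 0.013; Il1b -2.72, SE 0.55, adjusted p = 0.0356; background 1.02%) and neither with CL (Tnf -2.12, adjusted p = 0.0533; Il1b -2.51, adjusted p = 0.126; background 0.193%). With the replicate experiment as a block, both passed with CL as well (Tnf -2.07, adjusted p = 0.00131; Il1b -2.46, adjusted p = 0.00303). The cold calls were lost without either RT replicate (Tnf -1.53 and -2.88, adjusted p = 0.24 and 0.052; Il1b -1.77 and -3.30, adjusted p = 0.49 and 0.14). In the Adrb1 line, Tnf was 224 CPM (168 to 293) at RT and 125 (115 to 136) in the cold in WT and 184 (147 to 228) and 114 (95.9 to 135) in KO. Il1b in that line went from 92.9 (58.2 to 141) to 134 (124 to 145) in WT and from 262 (218 to 313) to 97.6 (80.8 to 117) in KO.

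Shares of cells gave the same direction in MAC2-like cells. After thinning to 1000 UMIs, Tnf was seen in 32.9% and 24.4% of them at RT but in 15.7% and 11.8% in the cold and 10.6% and 15.4% with CL, against 1.03% to 2.91% of Blym-like cells. Il1b was seen in 18.8% and 12.6% of MAC2-like cells at RT but in 5.79% and 5.88% in the cold and 5.37% and 11.6% with CL, against 1.89% to 4.95% of Blym-like cells. In 3 of the 4 treated libraries the share of Il1b was thus near those of B lymphocytes, and in CL replicate 2, at 11.6%, it was not. The shares of Tnf stayed above those of B lymphocytes in all 4. NEUT-like cells held an Il1b UMI in 91.0% to 97.3% of cells. Median UMIs per MAC2-like cell were 2761 to 4852.

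Other myeloid changes were not called in the C57 line without the replicate block. The antagonist Il1rn in MONO-like cells was 25.1 and 14.7 CPM at RT and 106 and 34.5 in the cold (1.76, adjusted p = 0.189; background 0.0865%), and Tnf in these cells was 39.7 and 40.4 CPM at RT and 119 and 67.1 in the cold (1.13, adjusted p = 0.213). With the block, Il1rn passed in MONO-like cells (1.62, adjusted p = 0.0142), and so did Il6 (-1.80, adjusted p = 0.0225), which was 60.9 and 25.7 CPM at RT and 25.1 and 1.81 in the cold and had not passed without it (-1.57, adjusted p = 0.319). Osm in NEUT-like cells was 202 and 262 CPM at RT, 538 and 688 in the cold, and with CL 294 and 244 (cold 1.46, adjusted p = 0.105; background 0.0451%). The cold neutrophil libraries lay above all RT and CL libraries for Osm, with only 24 cells in the first of them. Osm in DEND2-like cells was 25.2 and 22.8 CPM at RT and 48.9 and 40.0 in the cold (0.67, adjusted p = 0.0703).

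Over both lines, 21 of 68 pairs in 14 classes were called, 12 higher and 9 lower, beside a background of 17% of all gene and class pairs (8.13% higher and 8.83% lower), with the kit changing with temperature in the Adrb1 line. Il1rn was called higher in MONO-like (2.24, adjusted p = 0.0072; background 19.3%) and nonclassical MONO-like cells (2.79, adjusted p = 0.0029; background 26.3%). Osm was called higher in MAC1-like (1.09), nonclassical MONO-like (0.99), DEND2-like (1.01) and NEUT-like cells (1.17), with adjusted p = 0.0425, 0.0129, 0.0154 and 0.0495. These fits called 31.9% of genes in MAC1-like and 4.34% in NEUT-like cells. In the C57 line alone Osm in MAC1-like cells was at 0.10 (adjusted p = 0.954), and in NEUT-like cells it was 661 CPM at RT and 660 in the cold in WT, against 492 and 962 in KO. Il1r2 was called higher in MONO-like (1.14, adjusted p = 0.0402) and nonclassical MONO-like cells (1.30, adjusted p = 0.0168). In the C57 line alone Il1r2 in MONO-like cells was at 0.64 (adjusted p = 0.598). Il1b was called lower in MAC1-like cells (-1.69, adjusted p = 0.0342). In a cluster left without a name, led by Cxcl10, Ifit3 and Rsad2, Il1b (-1.40, adjusted p = 0.0469) and Il1r2 (-1.59, adjusted p = 0.0198; background 11%) were called lower, in a fit of 7 libraries because the KO library at RT held fewer than 20 such cells. In the C57 line alone neither passed (Il1b -1.42, adjusted p = 0.189; Il1r2 -0.15, adjusted p = 0.944), and Il1r2 was 216 CPM in the 36 cells of the WT library at RT against at most 42.05 CPM in each of the others. Tnf was called higher in MONO-like cells (1.11, adjusted p = 0.0178), opposite to its direction in MAC1-like cells (-1.60, adjusted p = 0.0152). Il6st was called lower in MAC1-like, MAC2-like (background 28.1%), MONO-like and DEND2-like cells, where kit and temperature change together. In the C57 line alone only the Il6st fall in DEND2-like cells passed. There Il6st was at -0.94 in MAC1-like, -0.39 in MAC2-like and -0.89 in MONO-like cells. In ASC1-like cells Il6st was 205 CPM in both version 3 libraries at RT and 94.3 to 173 CPM in the version 2 libraries of all treatments.

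**Figure D2:**
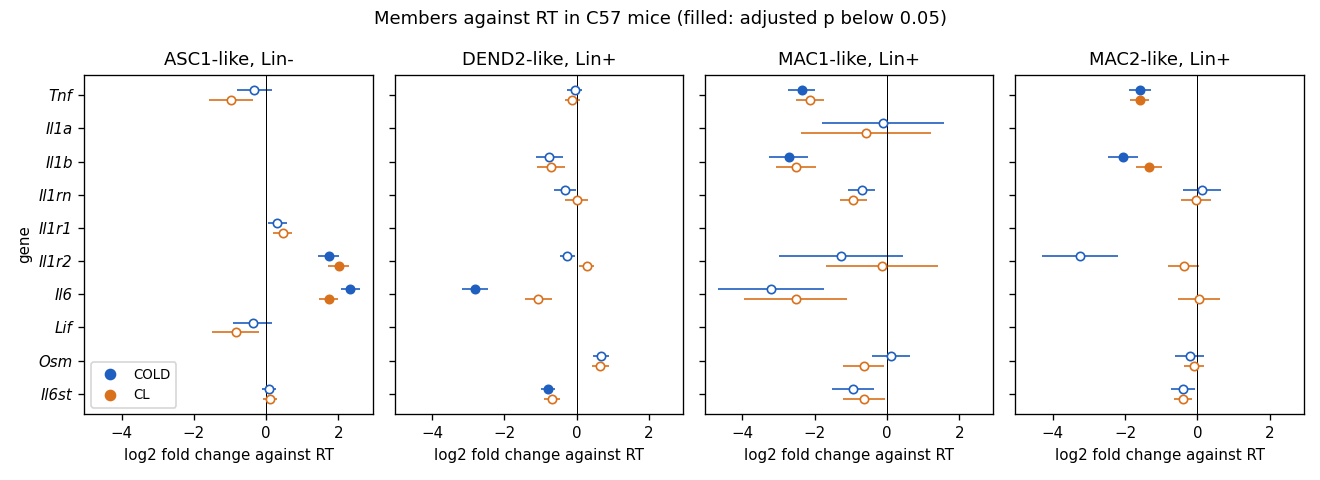
Log2 fold changes of the members against RT, with their standard errors, by class for COLD and CL in the C57 line. Filled points passed an adjusted p of 0.05 in edgeR, which were Il6 and Il1r2 (higher) in ASC1-like cells and, lower, Tnf and Il1b in macrophages and Il6 and Il6st in DEND2-like cells.

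Summed over a whole fraction, where fewer cells of a type and less RNA per cell cannot be told apart, Il6 in Lin+ libraries was 31.96 and 24.2 CPM at RT, 8.72 and 7.44 in the cold, and with CL 12.5 and 23.8. It was the only one of 36 tests of the members to pass (cold log2 fold change -1.75, SE 0.41, adjusted p = 0.0472; background 11.1%), and it was lost when any 1 RT or COLD library was left out. With the replicate block Il1rn in Lin+ libraries passed too (1.67, adjusted p = 0.0172, against 0.0671 without it), with 48.3 and 21.2 CPM at RT and 142.9 and 68.8 in the cold. In Lin- libraries Il6 was 94.4 and 102 CPM at RT, 79.7 and 87.1 in the cold, and with CL 84.3 and 124, so that the rise in ASC1-like cells is not seen in the total (background 0.013%). The makeup of the Lin- total differed instead: pooled over the C57 replicates, the ASC2-like share of Il6 UMIs was 54.9% at RT against 25.3% in the cold, where ASC1-like cells gave 46.8%. Cell numbers changed as well. ASC1-like cells numbered 1483 and 1488 at RT and 3022 and 2500 in the cold, and ASC2-like cells 1250 and 1339 and then 1277 and 962. The parts of cell number and level in these shares were not tested.

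The other genes of the pathway were followed through a list of 69 ligands, receptors, signal transducers, inhibitors and target genes. In ASC1-like cells, 58 were tested, and 14 were called higher and 1 lower in the cold, with a median log2 fold change of 0.44. The lower one, named after its values were seen, was the receptor chain Lifr (-1.14, adjusted p = 0.0205). Of all genes, 10.9% were called there. The targets Lcn2, Hp, Saa3, Timp1 and Cxcl2 rose most among those called whose treated and RT libraries did not overlap. Lcn2, an iron carrier binding protein of the acute phase, was at 0.134 and 0 CPM at RT and 33.5 and 16.7 in the cold, and Saa3, another acute phase protein, was at 15.03 and 0 CPM and then 657 and 719. Timp1, a protease inhibitor, rose by 3.71 on the log2 scale. Cxcl2, a neutrophil chemokine, rose from 4.43 and 2.71 to 30.2 and 19.7 CPM. With CL, Hp (8.19) and Serpina3n (3.57) were called, beside 1.28% of all genes. Hp was also among the 10 leading genes of the smaller Adipocyte-like Lin- cluster (515 cells), but not of the larger (2664 cells). The adipocyte markers given above for ASC1-like cells summed in ASC2-like cells to 30.4 to 56.3 CPM at RT, 150 to 232 in COLD and 114 to 428 in CL. Their part in the Hp values was not tested. ASC2-like cells had 3 of 55 called higher in the cold (Saa3, Hp and Lcn2) and 2 with CL (Hp and Serpina3n), beside backgrounds of 0.931% and 0.0639%. Pericytes had 3 of 35 in the cold (Saa3, Timp1 and Ccl2; background 0.606%). Of 53 genes tested in ASC3-like cells, none was called in the cold and Saa3 was called with CL, and of 54 in VEC-like Lin- cells none was called in either treatment.

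In macrophages the called genes of the list were mostly lower in the cold. In MAC1-like cells 4 of 51 tested were lower in the cold and none higher: the adhesion molecule Vcam1 (-4.94), the chemokine Cxcl1 (-2.37), the NF-kB subunit Nfkb1 (-1.89) and the NF-kB inhibitor Tnfaip3 (-1.84), where 1.02% of all genes were called. In MAC2-like cells 5 of 49 were lower, among them the IL-33 receptor Il1rl1 (-3.58), the cyclooxygenase Ptgs2 (-3.08), Vcam1 (-1.87) and the messenger RNA decay factor Zfp36 (-1.49), and Il18 was higher (1.55), beside a background of 4.54%. DEND2-like cells had 7 lower and 2 higher of 52 beside a background of 11.1%, with Vcam1 (-3.56) and Il1rl1 (-3.41) the most reduced. In monocytes the called genes were higher: Ccl2 in MONO-like cells (2.42) and Ccl2 (1.46) and Cxcl2 (1.18) in nonclassical MONO-like cells (background 1.36%). Median log2 fold changes of the listed genes tested in the cold were -0.38 in MAC1-like, -0.34 in MAC2-like and -0.27 in DEND2-like cells, against medians over all genes tested of 0.24, -0.042 and 0.0049. In ASC1-like cells the median of all genes tested was 0.0088. The all-gene median of 0.24 in MAC1-like cells means that changes there are read relative to a shifted centre.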

How the data were processed

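The authors aligned reads to mm10 with Cell Ranger 3.0.1 and removed free RNA with SoupX, so the deposited matrices hold estimated counts, with 97.2% to 99.6% of entries not whole. Barcodes were kept here with under 10% mitochondrial UMIs, under 15000 UMIs, under 4000 genes (Lin+) and over 100 genes (Lin-), after the study's limits. Cells were clustered per fraction with Scanpy 1.11.5 on 2000 variable genes without the members and the pathway genes (30 principal components, alignment over cohorts, 30 neighbours, Leiden resolution 1), and clusters were named from raised markers of a class, 3 or more being required. A cohort was a C57 replicate with its RT, COLD and CL libraries, or a single library of the Adrb1 line. Class and cluster makeup was therefore not aligned in the same way in the mouse lines. Doublets were scored with Scrublet and kept. The expected counts were summed per class and library, rounded after summing and tested with edgeR 4.0.16 (quasi-likelihood, TMM, filterByExpr, Benjamini-Hochberg, 0.05) in R 4.3.3; a test on simulated counts was run first. DESeq2 1.42.0, other filters, a coarser clustering and leaving out libraries were alternatives.

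The members and lists were chosen with earlier results of these data known. The 10 members are described in every comparison where they were called; of the pathway list, per class and contrast, the 5 called genes with the largest fold whose treated libraries both lie on one side of both RT libraries; and the 3 genes most like each member. Genes of this list discussed without a fold, and the clusters fitted one by one, were chosen after values were seen. Per the study's methods, C57 libraries with one replicate number came from one replicate experiment, so the numbers pair RT with treated libraries. Deviations from the group means correlated between 0.0502 and 0.386 for RT with COLD and between -0.125 and 0.149 for RT with CL. For COLD with CL the correlations lay between -0.0349 (MAC2-like cells) and 0.586 (all Lin- cells). The tests carry no block, and values with the replicate block are given where it changed a call. Intervals are exact (95%) and cover counting error only. Replicates of a group differed by far more than counting noise. Proteins and the Osm promoter were not used here; 9 of 10 members had a promoter in the RefSeq table.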

Additional observations from a re-analysis of the deposited data

Results flagged for a closer look

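The cold response differed between stromal subtypes in a test of the difference itself. On the log2 scale, ASC1-like minus ASC2-like was 2.37 for Il6 (adjusted p = 3.23e-06) and 1.93 for Il1r2 (adjusted p = 0.000277), and ASC1-like minus ASC3-like was 3.08 for Il6 (adjusted p = 0.000739), all by edgeR over the 6 C57 Lin- libraries. With CL, ASC1-like minus ASC2-like was 1.53 for Il6 (adjusted p = 0.00149) and 2.37 for Il1r2 (adjusted p = 0.000398). DESeq2 called these 5 differences as well, with values from 1.53 to 3.14. Against ASC2-like cells DESeq2 called 446 of 12279 genes in the cold and 88 with CL. Against ASC3-like cells it called 316 of 11636 in the cold.

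The mouse lines moved in opposite directions in 4 results that were not called in the C57 line without the replicate block. In each line the cold libraries all lay on the same side of the RT libraries, and that side differed between the lines. The levels themselves overlapped between the lines for Il1b in NEUT-like and Il6 in MONO-like cells. How many of all genes meet this rule was not counted, so the 4 results have no background beside them. The difference between the lines was not tested, and in the Adrb1 line the kit changes with temperature. The log2 change from RT to cold in the Adrb1 line was 0.44 for Il6 in ASC2-like cells, 0.66 for Il6 in ASC3-like cells and 1.47 for Il6 in MONO-like cells, where the C57 libraries fell, and -0.64 for Il1b in NEUT-like cells, where they rose. The C57 fall in ASC2-like cells was small, from 246 and 249 CPM at RT to 233 and 224 in the cold. It was from 219 and 194 to 81.8 and 158 in ASC3-like cells. In MONO-like cells it was from 60.9 and 25.7 to 25.1 and 1.81. Il1b in C57 NEUT-like cells was 7603 and 9671 CPM at RT and 11302.5 and 11206 in the cold, with only 24 cells in the first cold library.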

How the results depend on the processing

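Each alternative changed 1 choice, other than the fit over both lines. Of the 8 cold calls, Il6 in ASC1-like cells (2.08 to 2.54) and Il6 in DEND2-like cells (-3.17 to -2.56) passed under all 11 alternatives, and no called value changed sign under any of them. The count of cold calls was 17 with no filter on low counts, where 146 pairs are tested and 3.85% of all gene and class pairs were called (3.16% with the filter), and between 2 and 6 when 1 RT or COLD library was left out: 5 without COLD replicate 1, 5 without COLD replicate 2 and 2 without RT replicate 1, where 1.1% to 1.21% of all pairs were called. The count of 4 CL calls was 2 at Leiden resolution 0.5, where the MAC1-like and MAC2-like classes were not named, 10 with no filter (1.72% of all pairs, against 0.573%), and between 0 and 10 when 1 RT or CL library was left out (10 without CL replicate 2, 0 without RT replicate 1 and 2 without RT replicate 2, beside 2.61%, 0.737% and 0.208% of all pairs); the cause was not tested. At Leiden resolution 0.5 the CL fits called 0.27% of all pairs, against 0.573% at resolution 1. Over whole fractions the single call became 2 with DESeq2 and 3 with no filter. It was lost when any 1 RT or COLD library was left out. Of all genes over whole fractions, 17.3% were called in the cold with DESeq2 and 9.09% with no filter, against 5.28% with edgeR and the filter. The calls over both lines numbered 21 of 68 pairs, against 8 of 76 in the C57 line alone. That comparison changed several choices at once, with a line term, a second kit, no CL libraries and 14 classes in place of 16, and the cause was not tested. Il6st in DEND2-like cells was lost with DESeq2 (adjusted p = 0.11) and with no filter (adjusted p = 0.051). With fewer than 20 MAC1-like cells at RT, that class could not be fitted without the highest Scrublet scores or under 5% mitochondrial UMIs. With the replicate number as a block, the calls were 10 in the cold, beside 5% of all pairs. They added Il1rn and Il6 in MONO-like cells. With CL they were 6, adding Tnf and Il1b in MAC1-like cells, beside 1.26% of all pairs. Over whole fractions they were 2, adding Il1rn in Lin+ libraries, beside 11.8% of all genes in the cold and 0.0649% with CL. Every call made without the block remained, so that the block changed no other call of a member. Without thinning, the cold minus RT difference in the share of cells, in percentage points, went from 5.92 to 14.0 for Il6 and from 1.55 to 7.46 for Il1r2 in ASC1-like cells, from -2.83 to -13.2 for Il6 in DEND2-like cells and from -9.87 to -13.6 for Il1b in MAC2-like cells, while for Tnf in MAC2-like cells it was -14.9 thinned and -14.4 unthinned. None of the neighbour comparisons of levels passed in the C57 experiments alone (18 of 240 had an unadjusted p under 0.05, exact permutation test, whose smallest possible p with 6 experiments is 0.03125, so that no pair could pass adjustment unless most did) or with the mean over cells (30 of 269).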

Other observations

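A small Lin+ cluster that received no name held the highest Il6 of any cell group. Its 175 cells, 0.292% of Lin+ cells, were led by Cyp11a1, Il6, Mcpt8, Gata2, Cpa3 and Cd200r3, and it held between 6.01% and 40.9% of all Il6 UMIs of a Lin+ library, with 32.4% and 40.9% in the C57 RT libraries and 6.01% and 28.5% in the COLD ones. Mcpt8 is a protease of basophils and Cpa3 one of mast cells and basophils. Only 4 libraries held at least 20 of these cells, so no test between treatments was made in this cluster.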
